A study of Homo sapiens with 8 samples.

Results

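The genes described here encode the inflammatory caspases and the other core proteins of pyroptosis in Caco-2 cells. They were chosen by name as 10 genes, namely NLRP1, NLRP6, PYCARD, CASP1, CASP4, CASP5, GSDMB, GSDMD, GSDME and IL18, and all 10 were found among 22392 genes measured with a single annotated symbol. Each of them had 1 probe set of that kind, so no choice between probe sets was needed. The arrays compared Caco-2 cells, a line from a human colorectal adenocarcinoma that differentiates like small intestinal enterocytes, after 21 days in a gut-on-chip or on Transwell inserts. In the gut-on-chip, a microfluidic device, medium (DMEM with serum, antibiotics and non-essential amino acids) passed continuously at 100 µL/h once the cells had attached, with a shear stress of about 0.002 dyne/cm2 over them. The Transwell inserts were static and held the same medium, which was renewed every few days. In both systems the cells grew on PET membranes with pores of 0.4 µm. Both groups were seeded at 75000 cells per cm2 and comprised 4 samples with an array each. Because flow, device, feeding and harvest differed together, their contributions cannot be told apart. The cells were 1 line at passages 29 to 45 that the labels do not assign to samples, and the protocols describe neither immune cells nor an inflammatory stimulus. No label says that replicates came from independent cultures, so p-values here reflect the spread among these 4 and 4 samples alone, and that spread may be technical. In bulk RNA, fewer cells that express a gene and less RNA per cell cannot be told apart either.

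Pyroptosis is a lytic form of cell death that epithelial cells and macrophages use against invading microbes. In the canonical route, sensors of the NLRP family recruit the adaptor ASC, which is encoded by PYCARD, and activate caspase-1. In the non-canonical route, caspase-4 and caspase-5 bind bacterial lipopolysaccharide in the cytosol themselves. The active caspases cleave gasdermin D, whose fragments form pores in the plasma membrane, and caspase-1 also matures interleukin-18, a cytokine that intestinal epithelium produces constitutively. All of these steps act on proteins, whereas the arrays measured RNA, so neither cleavage nor cell death was measured.

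Values are RMA levels on the log2 scale, where 1 unit is a doubling of signal, and log2FC is the gut-on-chip minus the Transwell mean. Array medians lay between 2.462 and 2.485, and the table holds no detection calls, so a level near or below these medians cannot be told from absence of signal. Levels of different probe sets are not comparable, and only differences between the culture systems are compared. Linear models were fitted with limma to the whole table of 53617 probe sets. Their variances were moderated by a prior that depends on mean level, which was computed outside limma. Values given as from limma are those of these models with this prior, unless another setting is named. FDR values account for all probe sets, and a gene passed when its FDR was under 0.01. Correlations between arrays of the same group averaged 0.979 to 0.981 for each array, and none stood apart.

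The largest differences in signal among the 10 genes were those of CASP5 and CASP1. The Transwell level of CASP1 was below the array medians, so its place is one of signals only. In the gut-on-chip, 4 of the 10 were upregulated, namely CASP5, CASP1, CASP4 and GSDMB, and the other 6 showed no change that passed in either direction. Among all genes, taken with 1 probe set each, the upregulated made up 8.72% and the downregulated 7.06%, together 15.8%. Among all probe sets they made up 5.16% and 4.41%, together 9.56%. No downregulated member was found by limma with a mean-dependent prior, with its trend option or without a trend, and at an unadjusted p under 0.05 these gave 0, 0 and 1 lower members. The median log2FC was 0.20 for the 10 genes and 0.01 for all genes. For the 4 upregulated genes, every gut-on-chip array lay above every Transwell array, which was the case for 17.0% of all genes, while 30.7% did not overlap in one direction or the other. The calls of CASP5 and CASP1 held under all 17 alternatives, while those of CASP4 and GSDMB were close to the threshold and were lost under 10 of them.

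**Figure D1:**
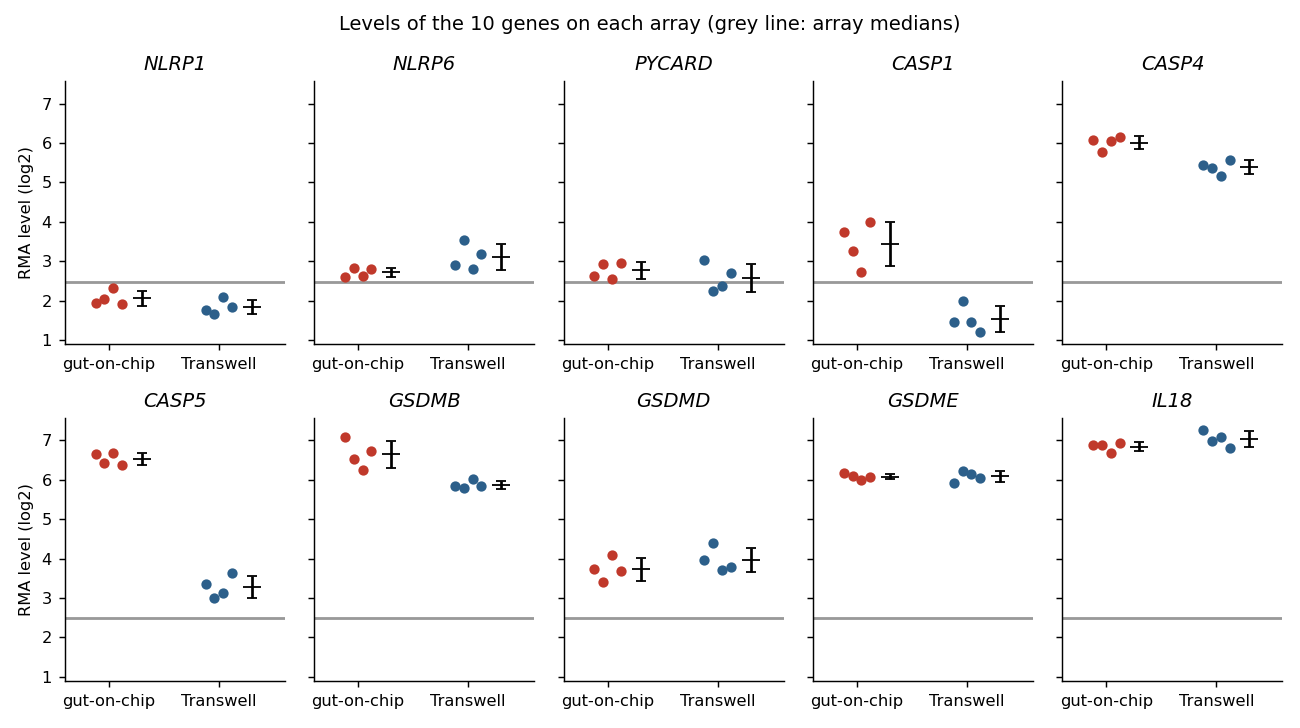
RMA levels (log2) of the 10 genes on the 4 gut-on-chip arrays (red, left) and the 4 Transwell arrays (blue, right), with mean and SD beside the points and the array medians as a grey line. CASP5 and CASP1 show wide gaps between the groups, CASP4 and GSDMB narrow ones, and the other 6 genes overlap.

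CASP5, which encodes a caspase that senses lipopolysaccharide, showed the largest difference in signal of the 10 genes. Its level was 6.65, 6.42, 6.68 and 6.38 in the gut-on-chip, against 3.36, 3.01, 3.12 and 3.64 in the Transwell inserts. The groups were 2.74 apart at their nearest arrays, whereas the widest range within a group was 0.63. Gut-on-chip arrays averaged 6.53 ± 0.16 and Transwell arrays 3.28 ± 0.28 (SD, n = 4 each), and log2FC was 3.25 (SE 0.16, FDR = 1.89e-06 from limma), a 9.51-fold ratio of signals. Its Transwell levels lay above the array medians but were low, so this ratio is one of signals and not an exact ratio of RNA amounts. With any 1 array left out, log2FC stayed between 3.16 and 3.37.

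CASP4, the neighbour of CASP5 and the other human sensor of lipopolysaccharide, differed much less. It had levels of 6.07, 5.77, 6.06 and 6.14 in the gut-on-chip, against 5.45, 5.37, 5.17 and 5.58 in the Transwell inserts. The nearest arrays of the groups, gut-on-chip replicate 2 and Transwell replicate 4, were 0.19 apart, which is less than the range within either group. Its log2FC was 0.62 (SE 0.13, FDR = 0.00791 from limma), or 1.54-fold. The FDR stayed under 0.01 without gut-on-chip replicate 2 (0.00499) and was 0.0106 to 0.0276 without any 1 of the other 7 arrays.

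CASP1 encodes the protease at the centre of canonical inflammasomes, and it was upregulated against a Transwell level at which signal cannot be told from none. Gut-on-chip arrays had levels of 3.75, 3.26, 2.73 and 3.99, against 1.47, 2.00, 1.46 and 1.21 on the Transwell arrays. All gut-on-chip values thus lay above the array medians and all Transwell values below them, but gut-on-chip replicate 3, at 2.73, was near the medians. Gut-on-chip arrays averaged 3.43 ± 0.56 and Transwell arrays 1.53 ± 0.33 (SD, n = 4 each), and log2FC was 1.90 (SE 0.28, FDR = 0.00118 from limma). This is a difference from a Transwell signal that was not told from background, so no fold of RNA amounts is given. Replicate 3 of the gut-on-chip was the lowest of its group and replicate 4 the highest, and their distance of 1.26 made CASP1 the most variable of the 10 genes within a group. Leaving out 1 array gave values of 1.71 to 2.13.

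The 95% intervals of log2FC were 2.88 to 3.61 for CASP5, 1.27 to 2.53 for CASP1 and 0.33 to 0.90 for CASP4. Because the Transwell level of CASP1 was below the array medians, its place among the 3 genes was not read from these intervals.

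**Figure D2:**
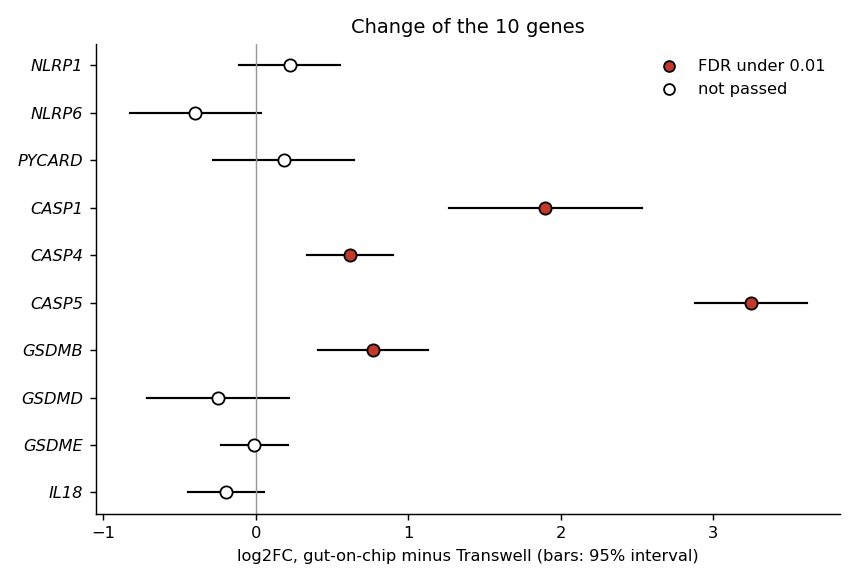
log2FC (gut-on-chip minus Transwell) of the 10 genes with 95% intervals from limma, ordered from sensors over adaptor, caspases and gasdermins to the cytokine, with filled points for an FDR under 0.01. The intervals of the 4 filled points lie above 0, and those of the 6 open points include 0.

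In the annotation, the 3 caspase genes lie next to each other in a cluster of chromosome 11 with CASP12, CASP4LP, CARD16, CARD17P and CARD18. The last 3 derive from duplications of CASP1 and carry little more than its recruitment domain, and CARD16 and CARD18 are known to restrain caspase-1. CARD17P had levels of 4.39, 2.51, 3.87 and 2.94 in the gut-on-chip, against 1.28, 2.20, 1.92 and 2.02 in the Transwell inserts. Its arrays did not overlap between the groups, but log2FC of 1.57 did not pass (FDR = 0.0211 from limma). It passed on leaving out gut-on-chip replicate 2 (FDR = 0.00683) and no other single array. CARD16 had levels of 3.29, 2.93, 3.25 and 2.93 in the gut-on-chip, against 2.23, 2.63, 2.53 and 2.18 in the Transwell inserts (log2FC = 0.71, FDR = 0.0212 from limma). Transwell levels of CARD17P were all below the array medians and those of CARD16 averaged 2.39, so both values are differences from a signal not told from background. When only the probe sets with 1 symbol were tested, both passed, with FDR values of 0.00523 for CARD17P and 0.00689 for CARD16. CARD18 (log2FC = 0.19, FDR = 0.586) and CASP12 (log2FC = 0.08, FDR = 0.716) at the ends of the cluster had levels below the array medians in both groups. Within the cluster, the groups were thus without overlap for the 5 adjoining genes from CASP4 to CARD17P, of which 3 passed the test. Over all genes, 30.7% did not overlap, 17.0% were all above and 15.8% passed, and this run of genes was picked after its values were seen, so nothing is read from its count. CARD16 and CARD17P closely resemble part of CASP1, and CASP4 resembles CASP5, so probe sets of these genes may take up signal of each other, which was not tested.

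**Figure D3:**
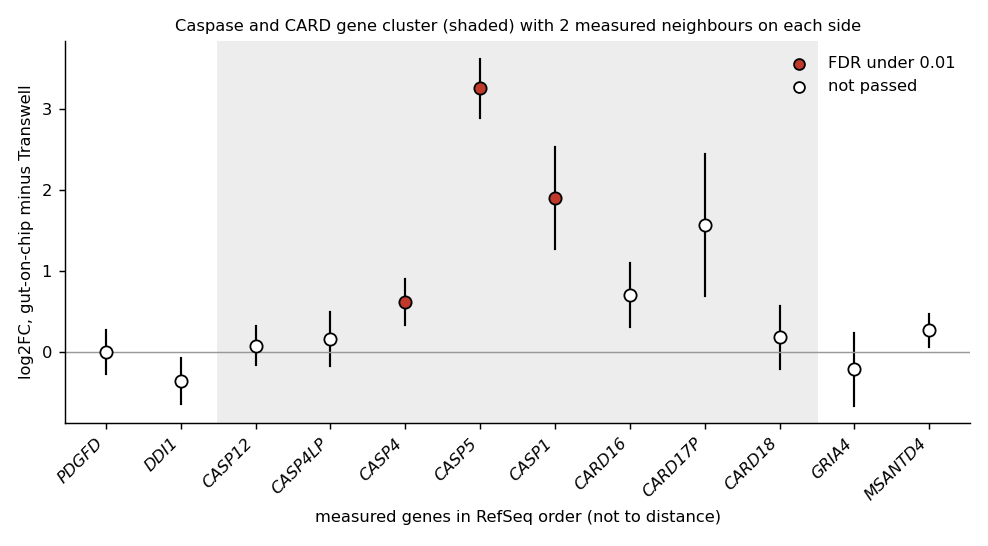
log2FC (gut-on-chip minus Transwell) with 95% intervals for the measured genes of the caspase and CARD cluster (shaded) and 2 measured neighbours on each side, in annotation order and not to distance, with filled points for an FDR under 0.01. CASP5 stands highest at 3.25, and the genes outside the run from CASP4 to CARD17P lie between -0.35 and 0.27.

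Upstream sequences from RefSeq (GRCh38.p14) were matched for 5 of the 10 genes, namely NLRP6, PYCARD, CASP4, CASP5 and GSDME, and were not used for CASP1, GSDMB, GSDMD, IL18 and NLRP1. The 250 bases before the start of CASP5 and of CASP4 are shown because these neighbours bind the same ligand and had log2FC values of 3.25 and 0.62. They are given 5′ to 3′ on the strand of the gene, the minus strand, at chr11:105023169-105023418 for CASP5 and chr11:104968575-104968824 for CASP4, with capitals for matches to the motifs searched.
CASP5: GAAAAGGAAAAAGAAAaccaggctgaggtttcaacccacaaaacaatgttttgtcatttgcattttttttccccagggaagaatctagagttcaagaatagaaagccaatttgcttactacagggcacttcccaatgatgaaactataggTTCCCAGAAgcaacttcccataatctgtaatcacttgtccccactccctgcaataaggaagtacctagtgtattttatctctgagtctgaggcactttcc
CASP4: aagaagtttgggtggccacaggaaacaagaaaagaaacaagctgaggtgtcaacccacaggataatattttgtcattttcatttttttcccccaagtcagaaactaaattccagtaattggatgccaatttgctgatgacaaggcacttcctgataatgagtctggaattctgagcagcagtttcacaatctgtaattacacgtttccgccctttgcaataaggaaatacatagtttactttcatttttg
Searched on both strands were the core of the interferon-stimulated response element (GAAA and again GAAA after 2 bases of any kind), the gamma-activated sequence bound by STAT factors (TTCNNNGAA), the AP-1 site (TGANTCA) and an NF-kappa B site (GGG and, after 2 bases of any kind, TTTCC). In CASP5, the first run of capitals holds overlapping matches to the interferon element at -250 to -241 and at -244 to -235 from the start, and the other run is a gamma-activated sequence at -100 to -92. CASP4 held none of the 4 motifs, and neither did the windows of NLRP6, PYCARD and GSDME. Among 35116 promoter windows of the same length, 3.02% held the interferon element, 6.57% the gamma-activated sequence, 6.57% the AP-1 site and 1.73% the NF-kappa B site. After alignment, 174 of 231 paired bases were identical between the windows of CASP5 and CASP4 (75.3%). A match describes letters only, and no binding was measured.

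Gasdermins are the proteins that open the pore, and of the 3 chosen only GSDMB, whose product granzyme A can cleave, was upregulated. GSDMB had levels of 7.08, 6.53, 6.24 and 6.72 in the gut-on-chip, against 5.84, 5.79, 6.02 and 5.84 in the Transwell inserts. The Transwell arrays lay within 0.22 of each other, whereas the gut-on-chip arrays spread over 0.84 and replicate 3 came within 0.22 of the highest Transwell array. Its log2FC was 0.77 (SE 0.16, FDR = 0.00887 from limma), or 1.70-fold. Without gut-on-chip replicate 3, log2FC was 0.90 (FDR = 0.00245), and without any 1 of the other 7 arrays the FDR was 0.0115 to 0.0293.

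GSDMD, the main executor downstream of the inflammatory caspases, did not pass. Levels were 3.73, 3.40, 4.09 and 3.68 in the gut-on-chip, against 3.97, 4.40, 3.72 and 3.79 in the Transwell inserts, so the groups overlapped. The log2FC was -0.25 (SE 0.21, FDR = 0.544 from limma), with a 95% interval of -0.71 to 0.22. GSDME, which encodes another pore-forming gasdermin, had levels of 6.16, 6.09, 6.005 and 6.06 in the gut-on-chip, against 5.92, 6.23, 6.16 and 6.05 in the Transwell inserts. The groups overlapped, log2FC was -0.01 (SE 0.10, FDR = 0.974 from limma), and the interval of -0.23 to 0.21 was the narrowest of the 10 genes. Its sign turned with any 1 of 3 arrays left out.

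IL18 encodes the cytokine that caspase-1 matures, and it was among the genes well above the array medians in both systems. Its levels of 6.89, 6.87, 6.67 and 6.93 in the gut-on-chip overlapped with 7.27, 6.98, 7.09 and 6.79 in the Transwell inserts. The log2FC of -0.20 did not pass (SE 0.11, FDR = 0.329 from limma), with an interval of -0.45 to 0.05. Replicate 1 of the Transwell inserts was the highest array and gut-on-chip replicate 3 the lowest.

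The sensors and the adaptor had low signal throughout. NLRP1, the sensor that DPP8 and DPP9 restrain, had levels of 1.94, 2.03, 2.33 and 1.93 in the gut-on-chip, against 1.76, 1.66, 2.09 and 1.83 in the Transwell inserts, all below the array medians and overlapping (log2FC = 0.22, FDR = 0.414 from limma). NLRP6, a sensor known from intestinal epithelium, had levels of 2.61, 2.83, 2.63 and 2.80 in the gut-on-chip, against 2.91, 3.55, 2.81 and 3.19 in the Transwell inserts (log2FC = -0.40, FDR = 0.237). Of the gut-on-chip arrays, only replicate 2 lay above the lowest Transwell array. PYCARD had levels of 2.62, 2.94, 2.55 and 2.96 in the gut-on-chip, against 3.03, 2.25, 2.36 and 2.71 in the Transwell inserts, around the array medians in both and overlapping (log2FC = 0.18, FDR = 0.672). The 95% intervals were -0.11 to 0.55 for NLRP1, -0.83 to 0.03 for NLRP6 and -0.28 to 0.64 for PYCARD, which is the precision that 4 arrays each gave.

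Within the gut-on-chip, replicate 3 was the lowest array for 5 of the 10 genes, namely PYCARD, CASP1, GSDMB, GSDME and IL18, and the highest for NLRP1, CASP5 and GSDMD. Replicate 4 was the highest for CASP1, CASP4, PYCARD and IL18. Replicates 1 and 4 lay above replicates 2 and 3 for CASP1, CASP4, GSDMB and IL18, and not for the other 6 genes. The margin was narrow for CASP4 (6.0691 against 6.0646) and IL18 (6.8861 against 6.8693). These pairs of replicates were picked after the values were seen, so nothing is read from them.

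The pattern of CASP5 over the 8 arrays was most like those of MT1G, which encodes a metallothionein, ABTB2 and the kinase gene FRK, among 10416 genes with a mean level of at least 4. Their Pearson coefficients with CASP5 were 0.998, 0.997 and 0.996, and the points share the split into 2 groups, which sets most of each value. MT1G had levels of 8.98, 8.53, 9.28 and 8.84 in the gut-on-chip, against 3.38, 3.10, 2.93 and 3.68 in the Transwell inserts. ABTB2 had a log2FC of 2.47 and FRK of 0.99.

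Of 75 further genes listed for the pathway, 70 were measured, and 7 of these passed as upregulated, 2 as downregulated and 61 in neither direction. The share of 12.9% is close to the 15.8% of all genes with 1 probe set that passed in either direction. Among 12 other inflammasome sensors none passed by limma with the mean-dependent prior, with its trend option or without a trend, and over all 14 sensors 1 was higher and 1 lower at an unadjusted p under 0.05 (2 lower without a trend). IFI16, a DNA sensor, had levels of 3.46, 2.43, 2.71 and 4.15 in the gut-on-chip, against 2.38, 2.09, 1.59 and 1.96 in the Transwell inserts (log2FC = 1.18, FDR = 0.048 from limma). The groups did not overlap, the Transwell levels were all below the array medians, and replicates 1 and 4 of the gut-on-chip were the highest. NAIP, the receptor of bacterial flagellin, had levels of 4.61, 5.17, 4.82 and 5.28 in the gut-on-chip, against 5.72, 5.53, 5.55 and 5.76 in the Transwell inserts, without overlap (log2FC = -0.67, FDR = 0.0177). It passed when only probe sets above the median level (FDR = 0.00989), only those with 1 symbol (FDR = 0.00490) or averaged probe sets (FDR = 0.00473) were tested. Among the 6 adaptors and small CARD or PYD proteins none passed either, and CARD16 and CARD17P were the ones with an unadjusted p under 0.05. Of the 3 other gasdermin genes none passed, also at an unadjusted p under 0.05. CARD8 (log2FC = -0.21, FDR = 0.408) and NLRP2 (log2FC = -0.12, FDR = 0.526) had levels above the array medians and overlapped between groups.

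Regulators and executors held 8 of the 9 calls, with 6 genes upregulated, 2 downregulated and 11 not passed among 19 measured. These calls made up 42.1% of the list, against 15.8% of all genes with 1 probe set each (8.72% upregulated and 7.06% downregulated). The list was chosen with earlier results of these data known. IRF1, an interferon-induced transcription factor, had levels of 6.85, 6.05, 6.24 and 6.50 in the gut-on-chip, against 4.86, 5.17, 5.24 and 5.12 in the Transwell inserts. Every gut-on-chip array lay above every Transwell array (log2FC = 1.31, SE 0.17, FDR = 5.70e-04 from limma). DPP9, the protease that holds NLRP1 and CARD8 in check, was upregulated by 0.73 on the log2 scale (SE 0.10, FDR = 5.56e-04). DPP8, its close relative, had a log2FC of 0.33 (FDR = 0.0713). Thioredoxin, encoded by TXN, and its binding partner TXNIP, which has been linked to NLRP3, were both upregulated, TXN by 0.53 (SE 0.05, FDR = 4.99e-05) and TXNIP by 0.78 (SE 0.07, FDR = 5.57e-05). The co-chaperone gene SGTA had a log2FC of 0.68 and BRCC3, whose product removes ubiquitin from NLRP3, of 0.33 (FDR = 0.00527). The FDR of BRCC3 was 0.00796 to 0.0215 with 1 array left out, and above 0.01 without any 1 array other than gut-on-chip replicate 1 and Transwell replicate 4.

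Downregulated regulators were ZDHHC9, one of the palmitoyltransferases reported to act on gasdermin D (log2FC = -0.43, SE 0.06, FDR = 7.51e-04 from limma), and the ubiquitin ligase gene TRIM31 (log2FC = -0.68, FDR = 0.00618). TRIM31 has 8 probe sets, of which 1 passed and all had a negative log2FC, and its FDR was above 0.01 without any 1 array other than gut-on-chip replicate 4 (at most 0.0239). SERPINB1, which restrains inflammatory caspases, had levels of 9.82, 9.09, 9.59 and 9.25 in the gut-on-chip, against 9.97, 10.07, 10.03 and 10.01 in the Transwell inserts (log2FC = -0.58, FDR = 0.0166). Without gut-on-chip replicate 1 it passed (log2FC = -0.71, FDR = 0.00206), as it did with only probe sets of 1 symbol (FDR = 0.00394) or averaged probe sets (FDR = 0.00384). NEK7, a partner of NLRP3, had a log2FC of -0.22 (FDR = 0.171).

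**Figure D4:**
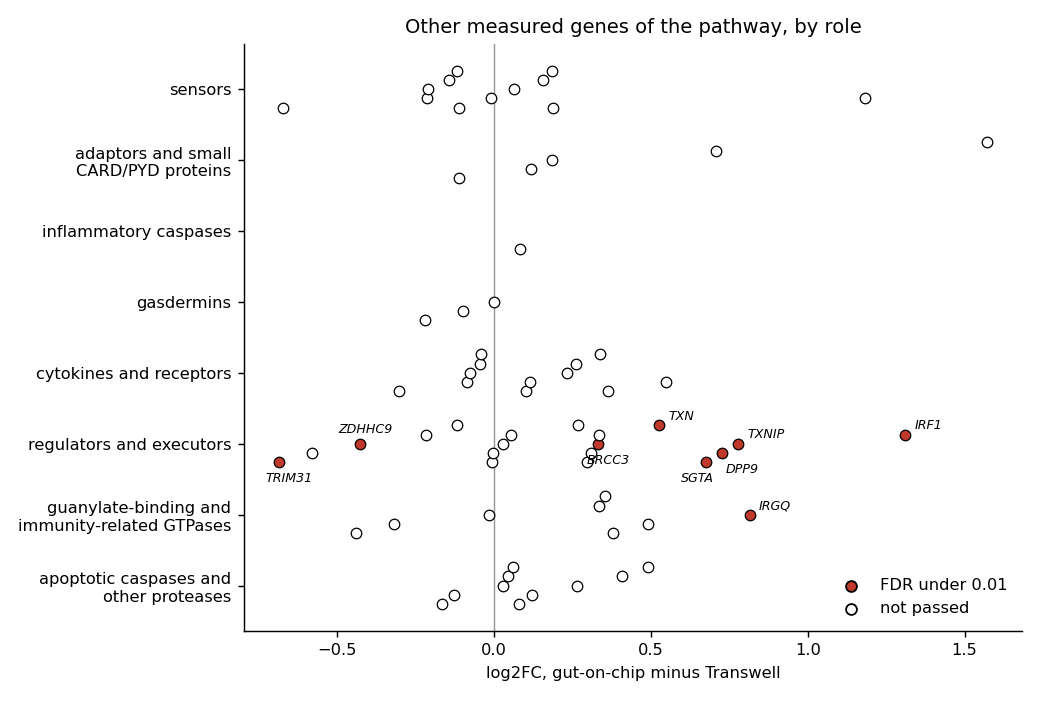
log2FC (gut-on-chip minus Transwell) of the 70 other measured genes of the pathway by role, with filled points for an FDR under 0.01, and height within a row has no meaning. The 9 filled points are 8 regulators and IRGQ, and IRF1 has the largest called change at 1.31.

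Guanylate-binding proteins help expose lipopolysaccharide to caspase-4. Of 8 measured genes in their list, which also holds the immunity-related GTPase gene IRGQ, IRGQ was upregulated (log2FC = 0.81, FDR = 0.00181 from limma) and 7 did not pass. GBP2 lay lower in every gut-on-chip array, with 5.43, 5.23, 5.04 and 5.05, against 5.56, 5.58, 5.58 and 5.78 in the Transwell inserts (log2FC = -0.44, FDR = 0.0398). The other probe set of GBP2, with a lower mean level, had a log2FC of -0.50 (FDR = 0.139 from limma). None of the 12 other cytokine and receptor genes passed under the same 3 settings of the limma models, and 1 of the 13 including IL18 was higher at an unadjusted p under 0.05. This was the receptor gene IL1R1 (log2FC = 0.55, FDR = 0.0395). IL1B had a log2FC of 0.10 (FDR = 0.803) at levels around the array medians, and IL18BP, which encodes the inhibitor of interleukin-18, of 0.23 (FDR = 0.277). Of 10 measured apoptotic caspases and other proteases, none passed under these settings, and 1 was higher at an unadjusted p under 0.05 (2 with a trend), namely CASP9 (log2FC = 0.41, FDR = 0.0269).

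Calls in either direction made up 58.3% of the epithelial and 27.3% of the leukocyte markers measured, against 15.8% of all genes with 1 probe set each. Of 12 intestinal epithelial markers, 1 was upregulated (KRT18, log2FC = 0.98), 6 were downregulated, among them VIL1 (-1.01) and SI (-5.20), and 5 did not pass, such as CDH1 (-0.05) and EPCAM (0.03). Their mean level was 7.85 to 8.07 on gut-on-chip arrays and 8.58 to 8.69 on Transwell arrays, and all 12 reached a level of 4 on some array. Of 11 measured leukocyte markers, CSF1R passed as upregulated (log2FC = 1.33), AIF1 (-2.30) and LAPTM5 (-1.50) as downregulated and 8 in neither direction. AIF1 has 6 probe sets, and only the one with the highest mean level is given. Mean levels of the 11 markers were 4.72 to 4.91 on gut-on-chip arrays and 4.85 to 5.13 on Transwell arrays. A level of 4 was not reached on any array by 5 of them, PTPRC, ITGAM, CD3E, MPO and TYROBP, and the other 6, CD68, LYZ, CD14, CSF1R, AIF1 and LAPTM5, did reach it. The defining leukocyte gene PTPRC had a mean level of 1.35 on gut-on-chip arrays and 1.51 on Transwell arrays, below the array medians. The part of either marker list in the caspase values was not tested.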

How the data were processed

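Total RNA from 8 samples was hybridised to Affymetrix Human Gene 2.1 ST arrays. The deposited values are log2 levels that the authors obtained by RMA (background correction, quantile normalization and summary of probes). RMA evens out overall signal between arrays at the level of probes, and small differences can remain between probe sets. Quantile normalization of the deposited levels again gave 2493 upregulated and 2510 downregulated probe sets, against 2765 and 2363 without it. The version of RMA was not stated in the sources used here. Custom gene-level probe sets are named in the methods, but the 53617 identifiers follow the manufacturer. The platform annotation gave 23866 of them 1 symbol, 1852 several and 27899 none, and only the first kind was named. For genes with several probe sets, the one with the highest mean level was used.

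Linear models in limma 3.58.1 (R 4.3.3) compared the culture systems without a block. The prior for the variance depended on mean level (loess span 0.3, 3.88 prior and 6 residual degrees of freedom), as the methods name. This moderation was computed outside limma, and the moderation of limma itself, with and without a trend, was run as an alternative. Two-sided p-values were adjusted after Benjamini-Hochberg across the whole table. Precision is limited by 4 arrays per group, and the procedure was tested on simulated data. There it found 2 of 46 probe sets with an absolute log2FC of 0.5 and 9 of 40 with 1. It found 42 of 55 with 2 and 59 of 59 with 4, and 1 of all 113 calls was false. A gene that did not pass is therefore not taken as unchanged.

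The members and lists were chosen with earlier results of these data known. Every member is named, other genes come from fixed lists, and the genes most like CASP5 were named by Pearson coefficient. Adjoining genes of the caspase cluster and the promoter pair were chosen after values were seen. Alternatives were other moderations of the variance, another normalization, filters on probe sets, weighting of arrays, replicate number as a block, leaving out each array, another threshold and averaged probe sets.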

Additional observations from a re-analysis of the deposited data

Results flagged for a closer look

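Among 46 named genes, each tested in both groups (92 groups of 4 arrays), 2 groups held an array far from the other 3, where chance flags about 5% of groups. Neither concerns one of the 10 pyroptosis genes. For BRCC3, Transwell replicate 4 read 8.10, while the remaining Transwell arrays read 7.96 to 7.97. For GBP2, the same array read 5.78 and its companions 5.56 to 5.58.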

How the results depend on the processing

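Over the alternatives, 146 of 169 log2FC values of the 10 genes kept direction and side of the threshold, 20 lost a call, all of CASP4 and GSDMB, and 3 turned sign, all of GSDME, whose log2FC was -0.066 to 0.038 with 1 array left out. Upregulated members numbered 4, against 2 by limma without a trend, 2 after quantile normalization again and 2 to 3 with 1 array left out (3 without gut-on-chip replicate 2 or 3), and none was downregulated under any alternative. Other pathway genes numbered 7 upregulated and 2 downregulated. At an FDR under 0.05 they numbered 14 upregulated and 5 downregulated, and all probe sets numbered 4510 and 3749. The downregulated other pathway genes numbered 4 when probe sets with 1 symbol or averaged probe sets were tested, 1 by limma without a trend and 1 to 2 with 1 array left out. Over everything tested, the downregulated numbered 2363 of 53617, against 2165 of 23866 with 1 symbol and 2060 of 22392 when averaged. They numbered 1940 without a trend and 1691 to 2145 with 1 array left out. For 36 other named genes, 569 of 609 values kept direction and side. NLRP1, CASP12, CARD18 and PTPRC had no value where probe sets at or below the median level were left out. Fewer samples or fewer probe sets tested are part of these alternatives, and the cause of the other changes was not tested.

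No pairing of the samples by replicate number was seen. The labels do not say whether same-numbered samples shared a passage or day, and the values below cannot exclude it. Deviations of same-numbered arrays correlated at -0.043 to 0.003, and no array correlated best with its own number. With replicate number as a block, 2 members and 1 downregulated other pathway gene passed, and 1763 probe sets were upregulated and 1587 downregulated, against 2765 and 2363 without it. The block ended the calls of CASP4 (FDR = 0.0212), GSDMB (FDR = 0.0276), BRCC3 (FDR = 0.0282), TRIM31 (FDR = 0.0139) and IRGQ (FDR = 0.0111) and changed no other call of a named gene. Low signal limits the values of CASP5, CASP1, CARD17P, CARD16 and IFI16 in the Transwell inserts and of NLRP1, NLRP6 and PYCARD in both groups. Single gut-on-chip arrays were near or below the array medians too, such as replicate 2 for IFI16 (2.43) and CARD17P (2.51) and replicate 3 for CASP1 (2.73).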

Other observations

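A further probe set is annotated to NLRP1 together with another symbol and was therefore not used above. Its levels were 2.13, 2.44, 2.41 and 1.73 in the gut-on-chip, against 2.30, 2.48, 2.11 and 2.39 in the Transwell inserts, below or around the array medians.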
